A study of Mus musculus with 6 samples.

Results

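Secreted antimicrobial proteins and the antibody transporter Pigr were compared between organoids of the mouse esophagus and stomach. The 9 genes were chosen by name (Lcn2, Slpi, Pigr, Lyz1, Lyz2, Reg3g, Camp, Wfdc2 and Ltf) and every probe carrying one of these names was kept, which gave 12 of the 55681 non-control probes and 9 of the 34298 gene names on the array. The data are 6 single-colour Agilent arrays, 3 of esophageal and 3 of gastric epithelial organoids, all at passage 0 and labelled as controls, from mice 1, 2 and 4. By the mouse numbers in the labels, each mouse gave 1 array of each tissue. Organoids are cultures in which epithelial cells grow and differentiate in a gel, here Matrigel, without the rest of the tissue. Samples were taken at day 8, except the gastric organoids of mouse 4, which were taken at day 7. The study's methods describe gastric organoids started from corpus glands in a medium with WNT3A and R-spondin1 conditioned medium and gastrin, and esophageal organoids started from dissociated cells in a medium with forskolin and without these 3 supplements. Both media held EGF, noggin, FGF-10, a TGF-beta receptor kinase inhibitor and a ROCK inhibitor. Tissue of origin, starting material and medium therefore cannot be told apart. The methods list wild-type C57BL/6 mice, and the labels of these arrays give no strain.

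Epithelia that face food and microbes are guarded by proteins they release. Lysozymes cut the bacterial cell wall, Reg3g is a C-type lectin that binds and kills mainly Gram-positive bacteria, the cathelicidin Camp disrupts membranes, and Ltf (lactoferrin) and Lcn2 (lipocalin 2) keep iron from bacteria, Lcn2 by binding siderophores. Slpi and Wfdc2 are small WAP-domain proteins, and Slpi also inhibits neutrophil serine proteases. Pigr, the polymeric immunoglobulin receptor, carries IgA and IgM across columnar epithelium into the lumen. Camp, Ltf and Lcn2 are also known as neutrophil granule proteins and Lyz2 as the lysozyme of macrophages, and these genes are often used as markers of those cells.

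Gastric organoids carried the signals of Reg3g, Lyz1 and, by the first of its 2 probes, Pigr, which lay at background level in all 3 esophageal samples, and higher signals of Wfdc2 and Lcn2. Esophageal organoids carried a far higher signal of Slpi. Ltf was measured in both tissues with no difference that passed the test, and Lyz2 and Camp were not well above background on any of the 6 arrays. In limma's moderated test, at an adjusted p under 0.05 over all probes, 8 of the 12 probes passed, 7 of them higher in stomach (Reg3g, Lyz1, Lcn2, both Pigr and both Wfdc2 probes) and 1 higher in esophagus (Slpi). Over all probes 12.2% passed, 5.94% higher in esophagus and 6.22% higher in stomach. The second Pigr probe is counted by its name, but is a purine repeat whose difference lay among those of other such probes. The 3 esophageal values did not overlap the 3 gastric values for 9 of the 12 probes, against 28.6% of all probes. With 3 arrays against 3, an exact two-sided permutation test of 1 probe cannot go below 0.1. Smaller p-values from limma rest on its model of normal errors, with a variance partly shared across probes.

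**Figure D1:**
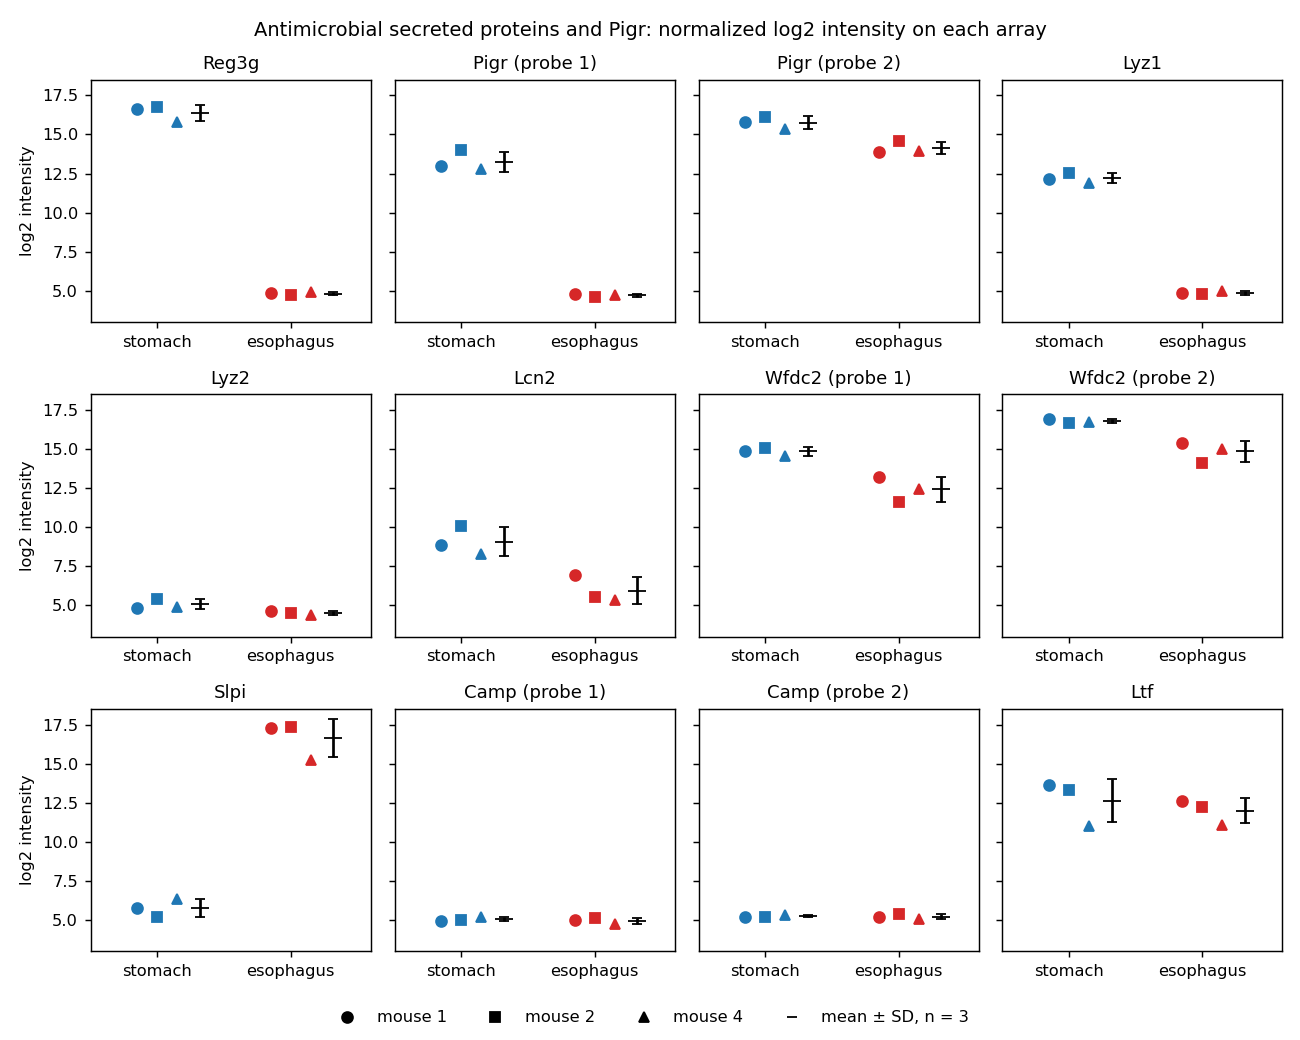
Normalized log2 intensity (y axis) of each of the 12 probes on the 6 arrays, with stomach in blue and esophagus in red, 1 marker shape per mouse, and the mean ± SD of 3 arrays beside each group. Reg3g, Lyz1 and the first Pigr probe lie near 5 in all 3 esophageal samples, Slpi lies near 5 to 6 in all 3 gastric samples, and Lyz2 and both Camp probes lie low on all 6 arrays.

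The DNA around the members is shown first, because both lysozyme genes are near copies that gave different readouts. The named probes of Pigr, and those of Camp, differ in sequence and are shown with their genes below. Lyz1 and Lyz2 lie side by side on chromosome 10 with 5522 bases between them (RefSeq, build GRCm38.p6). The 150 bases before each start were read from the minus strand, at chr10:117292869-117293018 for Lyz1 and chr10:117282273-117282422 for Lyz2. Capitals mark matches to the ETS core AGGAAG or its reverse complement.
Lyz1: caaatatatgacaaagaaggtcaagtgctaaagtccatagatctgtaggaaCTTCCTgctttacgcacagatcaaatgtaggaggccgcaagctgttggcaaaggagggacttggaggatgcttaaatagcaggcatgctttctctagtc
Lyz2: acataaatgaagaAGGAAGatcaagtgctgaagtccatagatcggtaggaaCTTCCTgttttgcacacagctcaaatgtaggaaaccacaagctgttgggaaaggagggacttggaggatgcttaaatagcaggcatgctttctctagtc
In a global alignment the 100 bases nearest the start were 92.0% identical, the 150 printed bases 88.7% and the whole 250 bases before the start 79.4%. The nearest ETS match lies at the same place in both, and Lyz2 holds a further one upstream.

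Reg3g and Slpi are shown as the members with the largest fitted difference in each direction, that of Reg3g being taken against background. Their printed stretches, also on the minus strand, are chr6:78468875-78469024 for Reg3g and chr2:164356508-164356657 for Slpi.
Reg3g: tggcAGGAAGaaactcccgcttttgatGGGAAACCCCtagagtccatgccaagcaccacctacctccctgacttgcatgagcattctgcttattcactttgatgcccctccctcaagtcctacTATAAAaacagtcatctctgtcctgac
Slpi: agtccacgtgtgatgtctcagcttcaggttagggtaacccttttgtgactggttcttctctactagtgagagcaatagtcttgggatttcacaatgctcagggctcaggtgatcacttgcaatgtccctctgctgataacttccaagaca
Capitals in Reg3g mark, from left to right, the ETS core, a match to the kappaB consensus and the TATA box TATAAA. In all 6 motifs were searched on both strands of the 250 bases before the start of each gene (the first listed start where RefSeq gives several), and 32851 RefSeq promoters of the same length gave the background. The ETS core was in 7 of the 9 members, all but Slpi and Pigr, and in 29.5% of all promoters. Reg3g was the only member with TATAAA (12.4% of all promoters) and the only one with the kappaB consensus (3.9%). AGATAA, the GATA motif, was in Ltf alone (9.99%), and neither the forkhead motif TGTTTAC (3.17%) nor the STAT motif TTCNNNGAA (7.02%) was in any member. A match is a string of letters and not a measured binding site.

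Reg3g, a lectin of the Reg family that intestinal epithelium releases against Gram-positive bacteria, was detected in stomach and not in esophagus. Its log2 intensity was 16.62, 16.76 and 15.80 in the gastric organoids of mice 1, 2 and 4, and 4.84, 4.71 and 4.93 in the esophageal organoids of the same mice. All 3 gastric values were high, mouse 4 the lowest of them, and no esophageal array was well above background. The groups differed by 11.57 ± 0.26 on the log2 scale (SE, n = 3 per tissue, limma adjusted p = 1.66e-07). Since the esophageal signal was background, the fold is a lower bound, at least 2660.45-fold higher in stomach, taking on each esophageal array the higher of the probe's own signal and the lowest signal among probes well above background. With another background correction (normexp, with an offset of 50 added to each corrected intensity) that bound was 1197-fold.

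Pigr, the receptor that moves IgA across the epithelium, was read by 2 probes that gave different answers. The first, at chr1:132748041-132748100 (mm9, plus strand), had log2 values of 13.01, 13.99 and 12.77 in stomach and 4.80, 4.60 and 4.71 in esophagus, in the order of mice 1, 2 and 4. No esophageal array was well above background at this probe, and every gastric array was. Pigr was at least 315.5-fold higher in stomach by it (log2 difference 8.56 ± 0.30 SE, limma adjusted p = 1.43e-06), and at least 134.6-fold with the offset of 50. The second probe carrying the name is listed on chromosome 9, at chr9:123832569-123832628, and with 4 RefSeq accessions, while the Pigr gene lies on chromosome 1. The first 30 bases of each are shown in the order of the text, because the second is a repeat.
Pigr probe 1: tcatgattttcagatgagaagagatgtttc
Pigr probe 2: gaggaggaggaggagaaggagaaggagaag
All 60 bases of the second probe are A or G, against a mean of 30.3 over all probes. It read 15.78, 16.15 and 15.37 in stomach and 13.88, 14.61 and 13.92 in esophagus, so it stayed bright where the first probe was at background. The difference was smaller, 1.63 ± 0.27 (SE) toward stomach with a limma adjusted p of 0.00613.

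The array holds 22 other probes made of A and G alone, of whatever gene name. All 22 were well above background on all 6 arrays, 21 had a lower mean in esophagus, and their median log2 difference was -1.32 (range -1.96 to 0.24, esophagus minus stomach). Limma called 5 of them higher in stomach and 0 higher in esophagus, where 0 also had an unadjusted p under 0.05. The second Pigr probe, at -1.63, lies inside that range, and the first, at -8.56, lies far outside it. Values for Pigr are therefore given below by the first probe, a choice made after the values were seen.

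**Figure D2:**
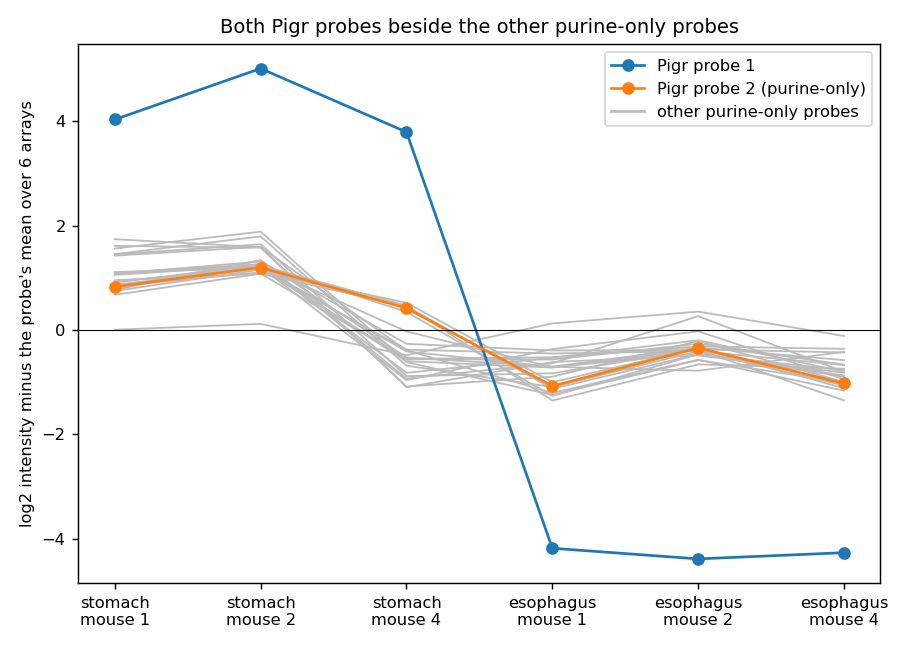
Log2 intensity minus each probe's own mean (y axis) on the 6 arrays (x axis) for both Pigr probes and the 22 other probes made of purine bases alone, drawn in grey. The second Pigr probe runs among the grey lines, while the first steps from about 4 above its mean in stomach to about 4 below it in esophagus.

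The lysozymes, enzymes that break peptidoglycan, split by copy. Lyz1, known as the Paneth cell lysozyme, read 12.14, 12.55 and 11.91 in stomach and 4.84, 4.78 and 4.99 in esophagus at chr10:116724862-116724921 (mm9, minus strand). Every gastric value was high and no esophageal value was well above background, which gave at least 143-fold more signal in stomach (log2 difference 7.33 ± 0.19 SE, limma adjusted p = 3.69e-07), and at least 63.6-fold with the offset of 50. The gastric SD of Lyz1 was 0.32 (n = 3), and 66.7% of the probes well above background on all 3 gastric arrays had a smaller one. Lyz2 at chr10:116719175-116719234 read 4.85, 5.44 and 4.92 in stomach and 4.63, 4.49 and 4.38 in esophagus. None of these 6 values was well above background, so no fold is given. The values did not overlap, the log2 difference was -0.57 (esophagus minus stomach, 95% interval -1.02 to -0.12), and limma's adjusted p of 0.111 missed the threshold. Both lysozyme probes were placed on different bases of the 2 genes, and how far each transcript can bind the other's probe was not measured.

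Lcn2, which traps bacterial siderophores, was higher in stomach. It read 8.84, 10.09 and 8.29 in the gastric and 6.92, 5.53 and 5.33 in the esophageal organoids of mice 1, 2 and 4, at chr2:32240199-32240258 (mm9, minus strand). The groups did not overlap, but the esophageal organoids of mouse 1 stood above the other two, and those of mouse 4 were not well above background. The difference was 3.15 ± 0.54 on the log2 scale (SE, n = 3), an 8.86-fold higher signal in stomach with a limma adjusted p of 0.0076. With a normexp offset of 50 the log2 difference was -2.50 and with the processed signal -3.998 (esophagus minus stomach). Within a mouse it ranged from -1.92 in mouse 1 to -4.56 in mouse 2 (log2, esophagus minus stomach). Among probes well above background on all 3 gastric arrays, 98.0% had a smaller SD in stomach than Lcn2.

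Wfdc2 and Slpi share the WAP fold, have 206207 bases between them on chromosome 2 and differed in opposite directions. Wfdc2, known as HE4 and made by many glandular epithelia, was high in both tissues and higher in stomach by both of its probes. The probe at chr2:164389616-164389675 (mm9, plus strand) read 14.89, 15.10 and 14.57 in stomach and 13.23, 11.63 and 12.46 in esophagus, a difference of 2.41 ± 0.37 (log2, SE) or 5.32-fold, with a limma adjusted p of 0.00456. The probe at chr2:164393947-164394006 read 16.92, 16.69 and 16.74 in stomach and 15.41, 14.12 and 15.004 in esophagus, a difference of 1.94 ± 0.31 or 3.83-fold, with a limma adjusted p of 0.0052. By both probes the esophageal organoids of mouse 2 had the lowest value and those of mouse 1 the highest, and the spread was wider in esophagus (SD 0.80 and 0.66) than in stomach (SD 0.27 and 0.12).

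Slpi, the secretory leukocyte protease inhibitor, was the only member higher in esophagus. At chr2:164179849-164179908 (mm9, minus strand) it read 17.31, 17.33 and 15.23 in esophagus and 5.75, 5.19 and 6.33 in stomach, for mice 1, 2 and 4. Mouse 4 had the lowest esophageal and the highest gastric value. On that gastric array 8 of the 10 squamous markers were also highest of the 3, 1 (Trp63) was lowest and 1 (Col17a1) lay between, with Krt13 at 6.35 against 5.38 and 5.12, Krt15 at 6.22 against 5.30 and 5.05, Krt4 at 6.20 against 5.36 and 5.52 and Pkp1 at 9.90 against 7.85 and 7.82, and their part in the Slpi value was not tested. The gastric organoids of mouse 2 were not well above background and those of mice 1 and 4 were. The log2 difference was 10.87 ± 0.57 (SE, n = 3, limma adjusted p = 1.27e-05), or 1866-fold. This size is set largely by the low gastric signal, and it was 10.10 with a normexp offset of 50 and 11.99 with the processed signal. Of the probes well above background on all 3 esophageal arrays, 97.6% had a smaller SD in esophagus than Slpi (SD 1.21). The esophageal array of mouse 4 was the only one on a second slide. Within the first slide, which held the other 5 arrays, the Slpi difference was 11.56, or 3027-fold.

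Ltf, the iron-binding lactoferrin, was well above background on all 6 arrays. It read 13.60, 13.29 and 11.03 in stomach and 12.64, 12.24 and 11.09 in esophagus at chr9:110942873-110942932 (mm9, plus strand). The groups overlapped, and mouse 4 was lowest in both tissues. The log2 difference of -0.65 (esophagus minus stomach) had a 95% interval of -2.24 to 0.95 and a limma adjusted p of 0.655, so this number of arrays leaves room for a difference of either sign. Within a mouse the difference was -0.96 in mouse 1, -1.05 in mouse 2 and 0.06 in mouse 4. The gastric organoids of mouse 4 lay at -2.41 from the mean of the other two on the log2 scale, and without them the difference was -1.45 (limma adjusted p = 0.0807). Of the probes well above background on all 3 gastric arrays, 99.5% had a smaller SD in stomach than Ltf (SD 1.40).

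Camp, the only mouse cathelicidin, was read by 2 probes on the minus strand of chromosome 9 that cover nearly the same bases. They are placed at chr9:109749901-109749950 and chr9:109749911-109749970 (mm9), so that the 60 bases of the first are placed over only 50 and the 2 placements share 40. Read as sequences, the probes overlap over 50 bases, of which 30 are shown with the bases that differ in capitals.
Camp probe 1: cagccGgagCagtaggcctgccttggcctg
Camp probe 2: cagccAgagTagtaggcctgccttggcctg
Counted from 1 at the 5′ end of the second probe, the first differs by A16G and T20C. The first probe ranged from 4.75 to 5.22 and the second from 5.05 to 5.37 over all 6 arrays. No array was well above background at either probe, the groups overlapped, and the log2 differences were -0.10 and -0.05 (limma adjusted p 0.788 and 0.901).

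**Figure D3:**
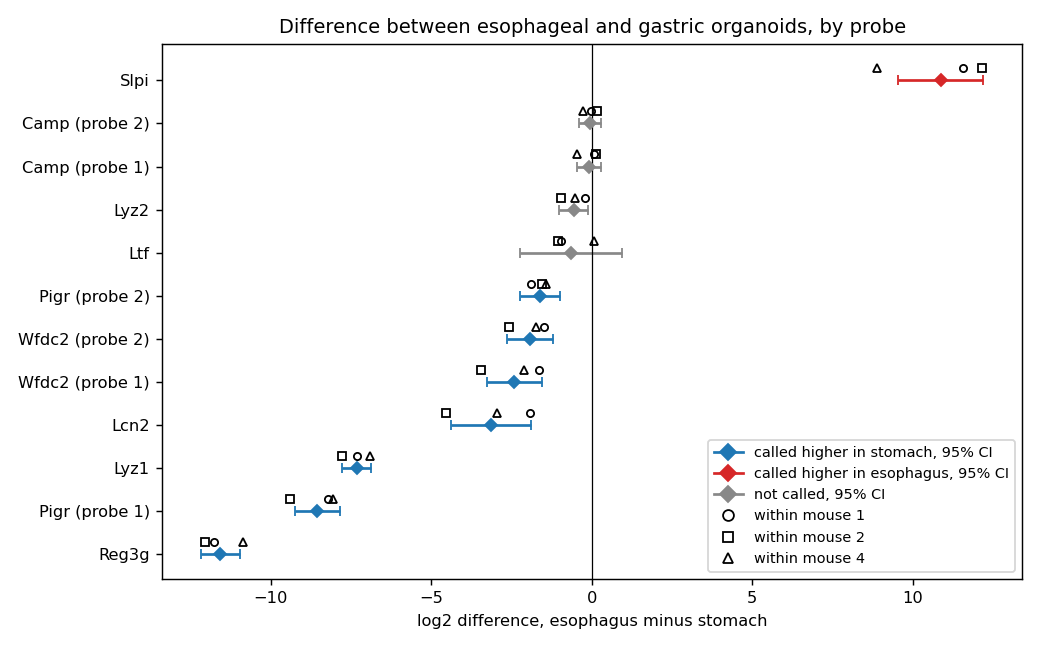
Log2 difference, esophagus minus stomach (x axis), of each of the 12 probes (y axis), with the limma estimate and its 95% interval as diamonds and the 3 within-mouse differences as open markers above it. Reg3g, the first Pigr probe and Lyz1 lie at -11.57, -8.56 and -7.33 and Slpi at 10.87, while the intervals of Ltf and both Camp probes include 0.

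Of the 8 probes that passed, all had within-mouse differences of 1 sign in the 3 mice, which follows from groups that did not overlap. The difference was smallest in mouse 1 for Lcn2 (-1.92) and Wfdc2 (-1.66 and -1.51) and in mouse 4 for Slpi (8.90). For Reg3g, Lyz1 and the first Pigr probe the esophageal side was background, so that only the gastric signals can be compared between mice. Mouse 4 had the lowest signal of the expressing tissue for Slpi, Reg3g, Lyz1 and Pigr. For the 3 gastric genes mouse and day cannot be told apart, since the gastric organoids of mouse 4 were the only ones taken at day 7, on the same slide as the other gastric arrays. For Slpi mouse and slide cannot be told apart, since the esophageal array of mouse 4, taken at day 8 like the others, lay alone on its slide.

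The same question was put to 46 other defense genes, each by its brightest probe, among them the non-secreted Duox2, Duoxa2 and Nos2. They split between the tissues: 11 were higher in esophagus, 14 were higher in stomach and 21 did not pass, with a median log2 difference of -0.18 against 0.03 over all gene names, of which 7.15% were higher in esophagus and 7.7% in stomach. The esophageal array of mouse 4 was the lowest of its tissue for 25 of the 46, and without it 13 were higher in esophagus and 11 in stomach. The shares of all gene names without that array are not given, so nothing is read from this shift. Of the 11 higher in esophagus, 5 were beta-defensins, 3 S100 proteins and 3 WAP proteins. Defb14, a beta-defensin of stratified epithelia, was at 16.66, 16.28 and 15.46 in esophagus and not well above background in stomach, at least 2209.7-fold higher (limma adjusted p = 4.12e-07). S100a9 and S100a8, the subunits of calprotectin, which withholds zinc and manganese from microbes, were also higher in esophagus (limma adjusted p 3.77e-08 and 3.6e-06). The fitted log2 difference of S100a9 was 10.35 ± 0.16 (SE), a size set largely by the background since 1 gastric array was not well above it, and S100a8, not well above background in stomach, was at least 259.7-fold higher. Wfdc12, a WAP protein like Slpi, varied widely in esophagus, at 15.41, 13.75 and 7.92 in mice 1, 2 and 4, and was not well above background in stomach, which gave at least 167.5-fold (limma adjusted p = 0.0242). That call was lost without any 1 of the 3 gastric arrays or without the esophageal array of mouse 2 (adjusted p 0.0538 to 0.0947), and the fitted log2 difference of 7.41 ± 1.64, itself taken against background, was 5.88 without the esophageal array of mouse 1, 6.72 without that of mouse 2 and 9.63 without that of mouse 4. Defb1, Defb3, Defb4, Defb6, S100a7a, Wfdc5 and Wfdc15b were the other 7.

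Of the 14 genes higher in stomach, the 4 with the largest log2 differences are given with values. Dmbt1, a scavenger receptor cysteine-rich protein that clumps bacteria, read 17.46, 17.17 and 15.58 in stomach and was not well above background in esophagus, at least 3065-fold higher (limma adjusted p = 2.29e-06). Sftpd, the collectin surfactant protein D, was at least 1907-fold higher (limma adjusted p = 8.28e-08) and Cxcl17, a mucosal chemokine, at least 392-fold higher (limma adjusted p = 1.47e-06). Reg3b, the neighbour of Reg3g in family and function, read 13.32, 14.32 and 9.99 in stomach, again lowest in mouse 4, and was at least 191.8-fold higher (limma adjusted p = 0.00133). Its fitted log2 difference of -7.81, against background in esophagus, was -9.09 without the gastric array of mouse 4 and -6.93 without that of mouse 2. The other 10 were Reg1, Itln1, Pglyrp1, Bpifb1, Ang4, Zg16, C3, Cfb, Retnlb and Duox2.

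**Figure D4:**
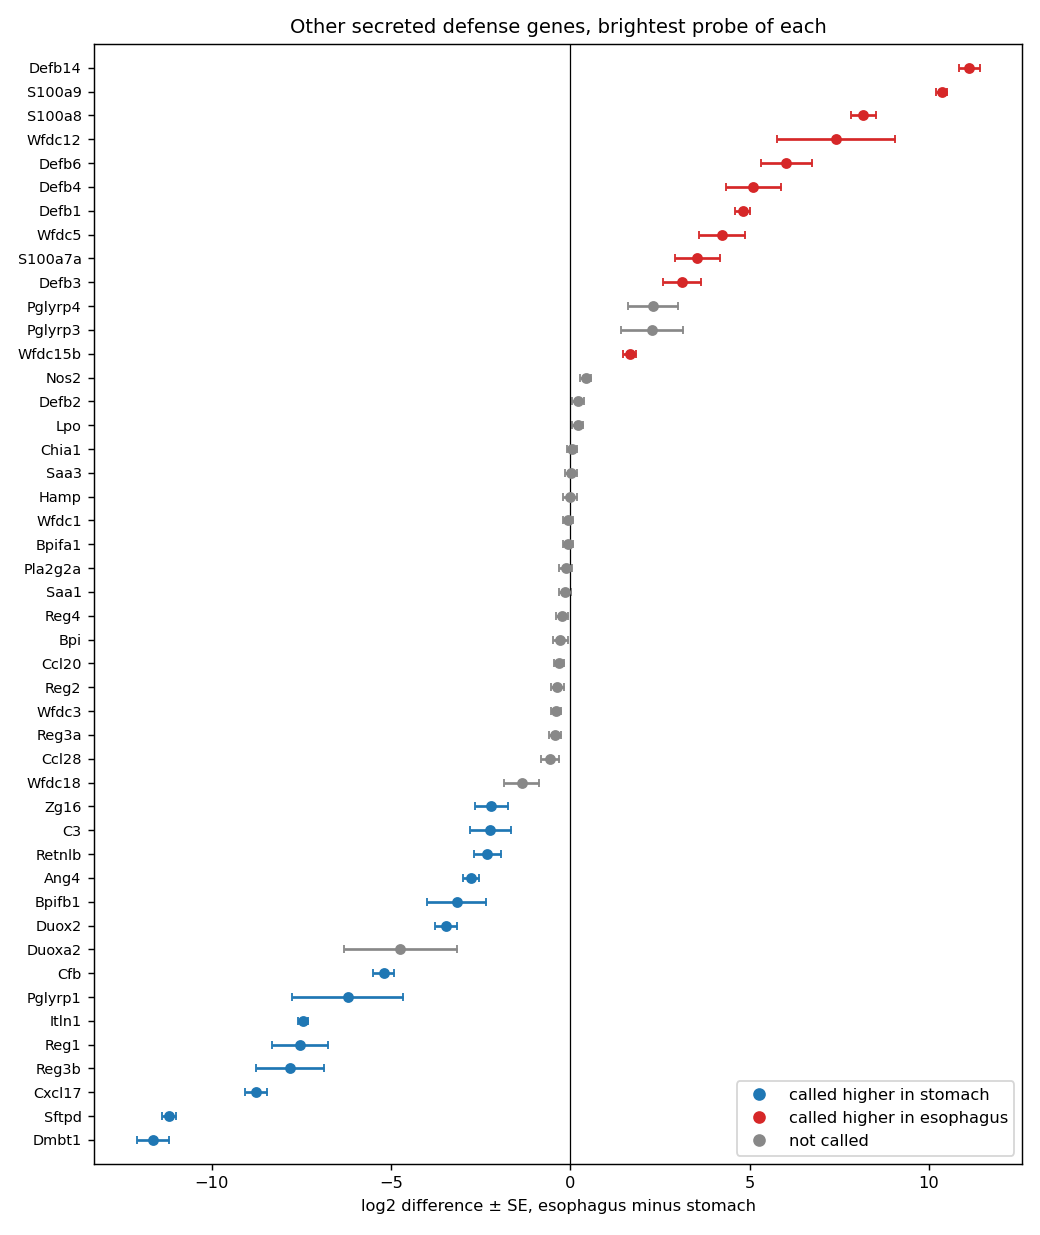
Log2 difference ± SE, esophagus minus stomach (x axis), of 46 other defense genes (y axis), each by its brightest probe, coloured by the limma call. Dmbt1 and Sftpd lie at -11.64 and -11.19 and Defb14 and S100a9 at 11.13 and 10.35, with 21 genes that did not pass in grey.

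Transcription of these proteins is known to be induced through IL-17, IL-22, IL-1, interferon and Toll-like receptors acting on NF-kappaB, STAT and C/EBP factors. A list of 32 receptors and factors was read, which also holds genes outside these classes, Vdr, Esr1, Ehf, Elf3, Il4ra and Tnfrsf1a among them. Of the 32, 28 gave a signal clear of background in every replicate of at least 1 tissue. Among the 32, 7 were higher in esophagus, 6 higher in stomach and 19 did not pass, against 7.15% and 7.7% of all gene names. The median log2 difference was 0.09, against 0.03 over all gene names. The esophageal array of mouse 4, alone on its slide, was the lowest of its tissue for 22 of these 32 genes and the highest for 2. Without it 9 were higher in esophagus and 4 in stomach. The shares of all gene names without that array are not given here either, so nothing is read from this shift. Higher in esophagus were the vitamin D receptor Vdr by 3.04 ± 0.23 (log2, SE), the NF-kappaB inhibitor Nfkbia by 2.36 ± 0.47, Cebpa by 2.30 ± 0.31 and the IL-17 receptor subunit Il17rc by 1.498 ± 0.26, and also Tnfrsf1a, Ehf and Nfkb1. Higher in stomach were the IL-1 receptor Il1r1 (-2.79 ± 0.36), the lipopolysaccharide receptor Tlr4 (-1.86 ± 0.22), Cebpd (-1.69 ± 0.40) and the interferon gamma receptor subunit Ifngr1 (-1.55 ± 0.33), and also Ifngr2 and Il10rb. The limma adjusted p-values of these 8 genes with values lay between 0.000105 and 0.0315. The calls of Nfkbia and Cebpd were lost without the gastric array of mouse 1 or 2 or the esophageal array of mouse 2, that of Cebpd also without the esophageal array of mouse 4 (adjusted p 0.0504 to 0.13), and Nfkbia was at 2.95 without the esophageal array of mouse 4. The call of Ifngr1 was lost without any 1 array other than the esophageal array of mouse 1 (0.05 to 0.0734). The methods give a threshold of p under 0.05 and 1.5-fold and do not say whether p was adjusted. Taken as unadjusted, this threshold gave 10 rather than 6 higher in stomach. The shares of all gene names at that threshold are not given.

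Of 13 receptors and partners of the members, 2 were higher in esophagus, 1 was higher in stomach and 10 did not pass, against 7.15% and 7.7% of all gene names, and from so few genes nothing is read about the list. P2rx7, through which cathelicidin peptides are known to act, was at least 10.8-fold higher in esophagus (limma adjusted p = 7.85e-05). Lrp1, an endocytic receptor that takes up lactoferrin, was higher in esophagus by 2.62 ± 0.51 (log2, SE, limma adjusted p = 0.0136), a call that was lost without the gastric array of mouse 1 or 2 or the esophageal array of mouse 2 (adjusted p 0.0523 to 0.0544), while the difference was 3.26 without the esophageal array of mouse 4. Plscr1, a phospholipid scramblase that binds Slpi, was higher in stomach, at -3.14 ± 0.28 (limma adjusted p = 0.000227). Jchain, which joins the polymeric IgA that Pigr carries, stayed at background level on all 6 arrays, as did the neutrophil proteases Prtn3 and Ctsg. Elane, the third neutrophil protease of the list and a target of Slpi, was well above background on all 6 arrays, at 7.74 to 8.42 in stomach and 7.71 to 7.81 in esophagus, and did not pass (log2 difference -0.21 ± 0.20, limma adjusted p = 0.628). Slc22a17, a receptor for Lcn2, was measured on all 6 arrays, with a log2 difference of 0.37 ± 0.47 that did not pass (limma adjusted p = 0.72).

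Since several members also mark white blood cells, markers of other cell types were read beside them. Over all gene names 7.15% were higher in esophagus and 7.7% in stomach, and nothing is read from counts of 1 in lists this short. Of 12 neutrophil markers, 3 were higher in esophagus (S100a9, S100a8 and Cxcr2), 1 was higher in stomach (Itgam), and 4 (Mpo, Prtn3, Ctsg and Ngp) stayed at background level. Elane (7.71 to 8.42), Ly6g (8.80 to 10.60) and Csf3r (13.44 to 14.88) were well above background on all 6 arrays and did not pass. Csf3r (limma adjusted p = 0.0736) was called higher in stomach with trended and robust variances (0.0412), without the gastric array of mouse 4 (0.00378) and at the methods' threshold. The summed log2 level of the 12 was 16.10 to 16.48 in esophagus and 14.62 to 15.46 in stomach, and the largest single term in esophagus was S100a9 at 15.59 to 15.97. Of 14 macrophage and leukocyte markers, 1 was higher in stomach (Cd14) and 7, Ptprc, Adgre1 and Tyrobp among them, stayed at background level. Cd68 (11.04 to 12.36 in stomach and 14.77, 12.94 and 11.80 in esophagus) and Csf1r (7.78 to 8.35) were well above background on all 6 arrays and did not pass. Without the esophageal array of mouse 4, or with the slide as a block, Cd68 was called higher in esophagus (adjusted p = 0.0498), and Mrc1 was called higher in stomach with the 75th percentile scaling (0.0454) and at the methods' threshold. The summed level of the 14 was 12.14 to 14.82 in esophagus and 12.54 to 12.96 in stomach. Of 8 lymphocyte and plasma cell markers, 1 was higher in esophagus (Cd79b) and 5 stayed at background level, with summed levels of 8.77 to 8.96 in esophagus and 8.65 to 9.13 in stomach. Cd3e (7.23 to 8.34) was well above background on all 6 arrays and did not pass. Of 6 fibroblast markers 0 were called by limma, 1 (Col1a2) had an unadjusted p under 0.05, and it was called higher in stomach with limma's trended and robust variances, with the 75th percentile scaling and without the esophageal array of mouse 2 (adjusted p 0.00799 to 0.0494). Their summed level was 7.46 to 7.70 in esophagus and 7.63 to 7.77 in stomach. What part such cells have in the values of the members was not tested. In such mixed RNA, fewer cells of a type and less RNA per cell cannot be told apart.

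The labels of both tissues were borne out by epithelial markers. Of 10 squamous markers 8 were higher in esophagus, among them the keratins Krt5, Krt14, Krt13 and Krt15 with fitted log2 differences of 11.93, 11.30, 11.00 and 9.79. Krt5 and Krt15 were well above background on 1 gastric array and Krt14 and Krt13 on 2, so these sizes are set largely by the background. Trp63, a squamous stem cell factor, was higher in stomach by its brightest probe (-1.22 ± 0.27, limma adjusted p = 0.0249, lost without the gastric or esophageal array of mouse 1 or of mouse 2, with a normexp offset of 50 or with the 75th percentile scaling, at 0.0556 to 0.11), while its other 3 probes were called higher in esophagus. Of 12 columnar and gastric markers 11 were higher in stomach, among them the secreted gastric proteins Tff2 and Gkn2, not well above background in esophagus and at least 6348-fold and 4129-fold higher in stomach, and Tff1 and Krt8, each well above background on 1 esophageal array, at fitted log2 differences of -12.34 and -11.24, also set largely by the background. Tff1 read 17.875 on all 3 gastric arrays (SD 0.0), so its normalized gastric values show no spread between mice. Each array had 45.5% to 51.1% of its non-control spots clear of background and none saturated.

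For each member with a measured signal, the 2 other named genes with the most similar pattern over the 6 arrays were taken from 17948 probes, by the root mean square of the differences after each probe was centred on its own mean. The genes nearest Slpi were Krt6b, a keratin of stratified epithelia (0.37 on the log2 scale), and Defb14 (0.47). Nearest Reg3g were Sftpd (0.23) and Vsig2 (0.25), and nearest Lyz1 were Samd5 (0.17) and the intelectin Itln1 (0.18). Nearest Wfdc2, by its brighter probe, were Bst2 (0.18) and the forkhead factor Foxq1 (0.18), nearest Lcn2 were Gsap (0.33) and Pdk2 (0.34), and nearest Ltf were the mast cell tryptase Tpsb2 (0.35) and a probe named Cplx2 (0.36), which is one of the 22 made of A and G alone. The brightest Pigr probe, the purine repeat, lay nearest probes named Vmn2r17 (0.051) and LF201436 (0.067), whose last 39 and 58 bases are A or G alone. The first Pigr probe lay nearest Tgm2 (0.16) and Adh1 (0.34). These are descriptions over 6 arrays in 2 tissues. For the members that passed, most of the likeness is the shared difference between the tissues. This does not hold for Ltf, whose groups overlapped (log2 difference -0.65, SD 0.81 in esophagus and 1.40 in stomach).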

How the data were processed

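RNA of 6 organoid cultures was hybridised to Agilent SurePrint G3 Mouse arrays (design 028005), read with Feature Extraction 11.5.1.1. The deposited scanner files hold raw spot intensity and flags, not normalized between arrays. The authors' deposited table holds log2 values, background corrected and quantile normalized by them, with column medians of 5.24 to 5.25 and no centring of genes. Normexp with an offset of 15 on median intensities and quantile normalization gave the same values to within 0.0726.

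Spots of a probe were averaged, and esophagus was compared with stomach by limma 3.58.1 (lmFit, eBayes, R 4.3.3) with Benjamini-Hochberg adjustment over 55681 non-control probes. Replicates are separate mice. By their labels, same-numbered arrays come from 1 mouse. Over 25836 probes the deviations of its 2 arrays from their group means had r = 0.042, 0.023 and -0.0018. Arrays of different mice had r from -0.091 to 0.040. The number of arrays limits the precision. The rule for names took all 9 members, up to 4 called genes per direction from each list, and 2 genes for likeness. Members and lists were chosen with earlier results of these data known. The alternatives were other background corrections, scaling, filters, variance models, blocks and thresholds, and leaving out each array. The fit was tested on simulated data, and no outcome of that test is given here.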

Additional observations from a re-analysis of the deposited data

How the results depend on the processing

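The count of member probes called was 8 in every alternative run, with the mouse as a replicate block too (8, of which 7 higher in stomach and 1 higher in esophagus), and it was 8 without any 1 array. No member changed its side of the threshold. The 8 include the second Pigr probe, the purine repeat whose difference lay among those of other such probes. The sizes moved with the background correction: the lower bounds of Reg3g, Pigr (first probe) and Lyz1 fell to 1197-fold, 134.6-fold and 63.6-fold with a normexp offset of 50, and came to 7639-fold, 703-fold and 418-fold with the processed signal, whose fitted log2 differences were -14.42, -11.23 and -10.18. Under the same 2 settings Slpi was at 10.10 and 11.99 and Lcn2 at -2.50 and -3.998 (log2). The block changed no member's call. Camp was the only member to change sign: with the slide as a block its log2 differences were 0.0058 and 0.030, the same as without esophagus replicate 4, whose slide held no other array. Over the fits without 1 array they ran from -0.18 to 0.0058 and from -0.13 to 0.030. Ltf kept a negative difference, from -1.45 to -0.17, with an adjusted p between 0.0807 and 0.94, and Lyz2 came nearest to a call at an adjusted p of 0.0504. Averaging all probes of a gene left 5 genes higher in stomach and 1 in esophagus. Scaling the processed signal to its 75th percentile moved the median difference over all probes from 0.02 to 0.19 (log2) and no member's direction. Other defense genes numbered 9 to 13 higher in esophagus and 10 to 16 higher in stomach. Inducing receptors and factors higher in stomach numbered 10 at the methods' threshold, against 6. Without 1 array they numbered 4 to 7 in stomach and 5 to 9 in esophagus. For these list counts the shares of all gene names under each alternative are not given, so nothing is read from their shifts. Genes not well above background have only bounds.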

Other observations

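The esophageal organoids of mouse 1 stood apart in some defense genes. Pglyrp1, a peptidoglycan recognition protein, read 12.89 there against 7.35 and 6.16 in mice 2 and 4, with 14.26, 14.76 and 15.99 in stomach. Duoxa2, the maturation factor of the epithelial peroxide generator Duox2, read 13.01 against 7.17 and 6.05, with 13.39 to 13.56 in stomach, and its difference between tissues did not pass (limma adjusted p = 0.103). Lcn2 was also highest there among the esophageal samples, at 6.92. The gastric genes Tff2, Gkn2 and Pgc were not well above background on that array or on the other 2 esophageal arrays. Of the 12 columnar and gastric markers, 8 were highest there among the esophageal samples and 4 (Krt8, Tff1, Muc5ac and Muc6) were not. Well above background on all 3 esophageal arrays and highest there were Krt18 (11.57 against 10.31 and 11.41), Krt19 (12.04 against 10.14 and 10.78), Krt7 (7.40 against 6.93 and 6.63) and Epcam (11.519 against 10.94 and 11.518), as were the epithelial factor Elf3 (14.00 against 12.06 and 11.45) and Cd68 (14.77 against 12.94 and 11.80). Their part in these values was not tested. These genes were picked out after their values were seen.

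The gastric organoids of mouse 4 had lower Reg1 (10.70 against 13.59 and 13.97), Reg3b (9.99 against 13.32 and 14.32) and Ltf (11.03 against 13.60 and 13.29) than those of mice 1 and 2, while their Pglyrp1 was the highest of the 3. On that array Muc5ac of surface mucous cells was also lower (13.26 against 15.65 and 15.03). Muc6 of mucous neck cells (9.79 against 7.39 and 8.33) and Pgc of chief cells (14.66 against 13.15 and 13.94) were higher. Tff2 was slightly lower (17.48 against 17.62 and 17.73). Of the 12 columnar and gastric markers, 6 were highest and 5 lowest of the 3 on that array. Of the 10 squamous markers, 8 were highest and 1 was lowest. The part of these markers in the values was not tested. The gastric organoids of mouse 4 were taken at day 7 and the others at day 8, and day and mouse cannot be told apart.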
